A study of Homo sapiens with 15 samples.

Results

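The cells described here were A549 cells, an established human lung adenocarcinoma line, transfected with an antagomir against miR-629*, which is a synthetic antisense oligonucleotide with locked nucleic acid bases that pairs with a miRNA and blocks it. They were measured on 3 of the 15 dual-color arrays of the series, those titled miR-629* replicates 1 to 3, and only the Cy3 channel of these arrays holds their RNA. The members were chosen by that label, and the comparison was the Cy3 channel of the other 12 arrays, on which the same cell line had received an antagomir against miR-181d, miR-565, miR-574-3p or miR-766, with 3 arrays each. All cells received 20 nM of oligonucleotide, and RNA was extracted at 24 h. The Cy5 channel of each array held A549 cells transfected with a synthetic precursor of the same miRNA (the mimic), and was used as a check. No array carried untransfected cells or a control oligonucleotide, so every difference below is relative to cells with another antagomir. The labels do not say whether the replicates were separate transfections, and p-values then measure only the spread between these arrays.

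A miRNA guides an Argonaute protein to mRNAs that carry a match to its seed, the short stretch near its 5′ end, and the bound mRNA is translated less or degraded. Blocking a miRNA is therefore known to raise the mRNAs it represses, when the miRNA is abundant enough to repress them. The star in miR-629* is the older sign for the strand of the hairpin taken to be the less abundant, now written miR-629-3p. The precursor, MIR629, lies at chr15:70079372-70079468 on GRCh38.p14, within the bounds of TLE3 (chr15:70047790-70097917), a transcriptional corepressor of the Groucho family. Mature sequences of miR-629*, miR-181d and miR-574-3p are shown because antagomirs were made against these miRNAs. The other strand of the miR-629 hairpin is shown beside them. The sequences shown have different seeds. They are from RefSeq (GRCh38.p14), 5′ to 3′, with the seed (bases 2 to 8) in capitals, and those of miR-565 and miR-766 were not used here.
miR-629-3p (miR-629*), chr15:70079387-70079408, minus strand: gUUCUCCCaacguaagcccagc
miR-629-5p, the other strand of the same hairpin: uGGGUUUAcguugggagaacu
miR-181d-5p, read here as miR-181d: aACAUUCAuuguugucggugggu
miR-574-3p: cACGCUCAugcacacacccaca

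The arrays were much alike in Cy3. Probes with Cy3 signal well above background made up 72.1% to 72.4% of a miR-629* array, against 68.8% to 73.0% of the other 12. The median rank correlation of an array with the others was 0.991 to 0.992 for the miR-629* arrays. Before normalization, the median log2 signal of miR-629* replicate 3 was 5.72, below the 6.22 and 6.16 of replicates 1 and 2 and below the other 12. The arrays lay on 4 slides. The miR-629* arrays shared theirs with 1 other array, miR-574-3p replicate 3, so that slide and antagomir can be told apart only through that array. Values given below as within the slide compare the 3 miR-629* arrays with that 1 array. They are therefore also a comparison with the miR-574-3p antagomir. Their p-values assume that this 1 array varied like the 3 miR-629* arrays, and hold no spread of the miR-574-3p antagomir. The SD over the 3 miR-629* arrays had a median of 0.189 (log2) for probes with a mean log2 signal under 6 and of 0.0573 for probes over 10. TLE3, the gene around MIR629, had a log2 difference of -0.05 (standard error 0.05, limma adjusted p = 0.716). The array has no measure of the miRNA itself.

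In Cy3, 146 genes were higher in the miR-629* antagomir cells than in the mean of the 4 other antagomirs at an adjusted p under 0.05 (limma, Benjamini-Hochberg), or 0.66% of the 22127 genes tested, and 55 genes were lower, or 0.249%. Differences were small for most of them. The median log2 difference was 0.32 for the genes called higher and -0.26 for those called lower, and 9 genes rose and 0 fell by over 2-fold, while 2878 genes had an unadjusted p under 0.05. Fewer genes were called for miR-629* than for any of the other antagomirs compared in the same way, for which the totals were 484 (miR-181d), 654 (miR-565), 999 (miR-766) and 1989 (miR-574-3p) against 201. These comparisons share their arrays. All 3 miR-629* arrays lay above all 12 others for 89 of the 146 genes, where 0.791% of all genes tested did so, and below all 12 for 13 of the 55, where 0.479% of all genes tested did so. When miR-629* was set against each of the 4 other antagomirs separately, 35 genes were higher in every one of the 4 comparisons (0.158% of the genes tested) and 2 were lower (0.00904%). Without miR-629* replicate 3 there were 63 genes higher and 15 lower, and without replicate 2 there were 65 and 22. Without miR-629* replicate 1, the number lower was 26, and it was 34 or 35 without miR-565 replicate 1, miR-565 replicate 3 or miR-574-3p replicate 2. With the 12 other arrays taken as a single group, 55 genes were higher and 3 lower.

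The largest rise among genes with a current symbol was in TMSB10, which encodes thymosin beta 10, a small protein that binds actin monomers. Its normalised Cy3 log2 signal was 16.13, 16.67 and 16.40 on miR-629* replicates 1, 2 and 3, and 14.67, 14.74 and 14.88 as the lowest, median and highest of the other 12 arrays. Every miR-629* array thus lay far above every other array, and the other 12 lay close together. The difference was 1.65 (standard error 0.08, limma adjusted p = 3.80e-09), or 3.13-fold, and it was 1.63 to 1.66 against each of the 4 other antagomirs. The only probe named TMSB10 spans chr2:84986309-84986652 (NCBI36), 344 bases for a probe of 60 bases. Against the array of the same slide, whose signal was 14.83, the difference was 1.57 (limma adjusted p = 0.00217). A probe that the files name THC2588453, describe as thymosin beta 10 and place on chromosome 1 did not share this rise. Its log2 signals of 10.51, 10.35 and 10.39 lay below the lowest of the others, 10.57, with a difference of -0.29 (limma adjusted p = 0.0257) in Cy3 and -0.34 in Cy5. The longest run that its sequence shared with the TMSB10 probe was 10 bases, on the opposite strand. TMSB4X, the closest relative of TMSB10, had a difference of 0.02 (limma adjusted p = 0.925). In bulk RNA, a change in the share of cells and a change in RNA per cell cannot be told apart.

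UBE2V2 encodes a ubiquitin-conjugating enzyme variant that lacks the catalytic cysteine and works as the partner of UBE2N. Its normalised Cy3 log2 signal was 10.16, 10.30 and 10.43 on the miR-629* arrays and 8.98, 9.12 and 9.33 (lowest, median, highest) on the other 12. The groups did not overlap, and the difference was 1.17 (standard error 0.06, limma adjusted p = 1.60e-08), or 2.25-fold. UBE2N itself had a difference of -0.06 (limma adjusted p = 0.462). Within the slide the UBE2V2 difference was 1.10 (limma adjusted p = 0.00138).

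MGST3 encodes a microsomal glutathione transferase of the MAPEG family of membrane enzymes. Its log2 signal was 15.11, 15.23 and 15.23 on the miR-629* arrays and 14.17, 14.21 and 14.63 (lowest, median, highest) on the others. The difference was 0.89 (standard error 0.03, limma adjusted p = 5.79e-10), or 1.85-fold. It was smallest against miR-565, at 0.59, since the miR-565 antagomir arrays had a mean of 14.60 where the means of the other 3 antagomirs were 14.20 to 14.21. Within the slide it was 0.97 (limma adjusted p = 6.13e-04).

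The next rises by size were in genes of different roles. EMC4, a subunit of the complex that inserts proteins into the membrane of the endoplasmic reticulum, had log2 signals of 14.75, 14.93 and 14.92 on the miR-629* arrays and at most 14.34 on the others, a difference of 0.66 (standard error 0.04, limma adjusted p = 1.55e-07). GABARAPL2, one of the ubiquitin-like proteins that coat autophagosomes, had 13.22, 13.41 and 13.41 against at most 12.85 on the others, a difference of 0.57 (standard error 0.04). HSBP1, which binds heat shock factor and is known as its inhibitor, had 14.94, 14.94 and 14.98 against at most 14.59, a difference of 0.49 (standard error 0.03). In these 3 genes the gap between the lowest miR-629* array and the highest other array was wider than the range of the other 12, and each gene differed from every one of the 4 other antagomirs at an adjusted p under 0.05. The next 4 genes also differed from every one of them. TSPYL1, a relative of nucleosome assembly proteins, differed by 0.53. EIF6, which keeps the large ribosomal subunit from joining the small one, differed by 0.53, and TAPBP, the tapasin of peptide loading onto class I histocompatibility molecules, by 0.53. With the slide as a fixed block in the fit the EIF6 call was lost (limma adjusted p = 0.160). DPY30, a subunit of the histone H3 lysine methyltransferase complexes, differed by 0.48, but its difference against miR-574-3p was 0.27 and within the slide 0.24 (limma adjusted p = 0.189).

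The last genes that the naming rule gave among the rises were dim. ZDHHC22, of the palmitoyltransferase family, had log2 signals of 5.56, 5.30 and 5.50 on the miR-629* arrays and 4.56, 4.93 and 5.29 (lowest, median, highest) on the others, and GSTM5, a glutathione transferase of the mu class, had 5.14, 5.03 and 5.21 against a median of 4.74. Their adjusted p values of 0.0492 and 0.0483 (limma) were close to the threshold, and the calls were lost in 23 of 31 alternative settings each. The mu-class genes resemble each other closely in sequence, and cross-hybridization was not tested.

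**Figure D1:**
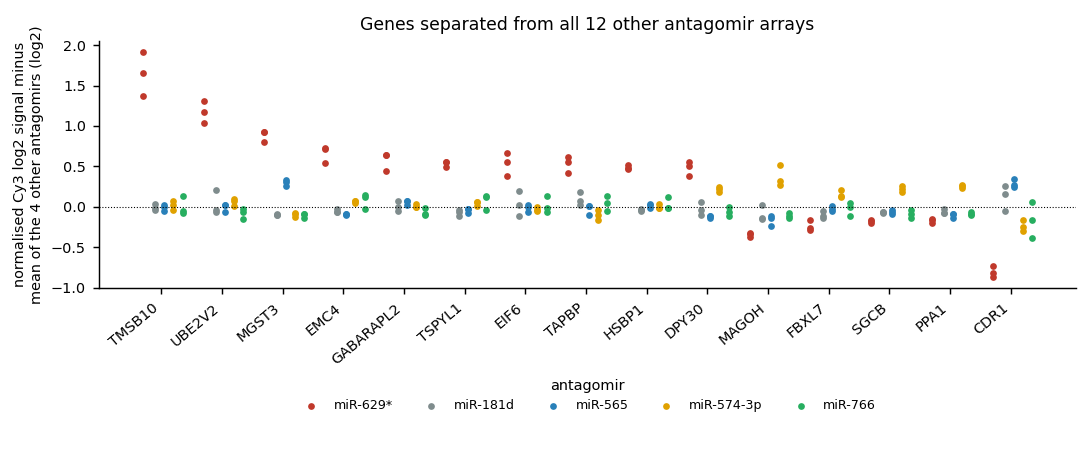
Normalised Cy3 log2 signal of each of the 15 arrays, minus the mean of the 4 other antagomirs' means, for 14 genes named by rule and the probe labelled CDR1. Each point is an array, colored by antagomir. The red miR-629* points lie above all others from TMSB10 (difference 1.65) to DPY30 (0.48) and below all others from MAGOH (-0.35) to CDR1 (-0.81).

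Several of the strongest signals came from probes with no current gene symbol, and these were chosen here after their values were seen. The probe named FLJ31813 had log2 signals of 8.45, 8.60 and 8.52 on the miR-629* arrays and 6.93, 7.13 and 7.72 (lowest, median, highest) on the others, a difference of 1.31 (standard error 0.06, limma adjusted p = 3.66e-09). RAMAC, which encodes the activating subunit of the mRNA cap methyltransferase, differed by 1.14 (standard error 0.06) on 1 of its probes. Among the 20 probes compared in pairs, that RAMAC probe and the FLJ31813 probe shared the longest run, 23 bases. The probe sequences are shown because of this shared stretch, with the shared run in capitals and the strand as the files give it.
RAMAC probe, chr15:81448832-81448891 (NCBI36), plus strand: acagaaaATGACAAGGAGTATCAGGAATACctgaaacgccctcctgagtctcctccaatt
FLJ31813 probe, chr10:51496405-51496464 (NCBI36), minus strand: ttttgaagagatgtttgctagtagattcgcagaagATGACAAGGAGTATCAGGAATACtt
Whether the FLJ31813 signal comes from RAMAC transcripts was not tested. A second pair was AU119088, an unnamed transcript that differed by 0.88 (standard error 0.05), and a probe of PEDS1-UBE2V1, which shared a run of 16 bases and overlap in position on chromosome 20. ENST00000373268 on chromosome 2 differed by 1.33 (standard error 0.08) and AK054718 on chromosome 11 by 1.05 (standard error 0.10), also with no overlap between the groups. The largest difference of a called gene, 1.66 for AA642112, was at the dim end, with log2 signals of 4.63, 4.82 and 4.44 against at most 3.54, and this probe was well above background on only 5 of the other 12 arrays. With the slide as a fixed block the calls of AK054718 and AA642112 were lost (limma adjusted p = 0.127 and 0.116).

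Some genes were called on 1 probe and not on another. Among the 12 largest rises named by rule this held for GABARAPL2, HSBP1, TSPYL1 and TAPBP. Among the rises named from the gene lists it held for H2BC5 and TPM2. Of 5968 genes with several tested probes, 112 had a probe called higher or lower, and in 97 of these 112 at least 1 other probe was not called. The difference between probes was not tested, and in 14 of the 97 every uncalled probe had a difference of the same sign and at least 0.5 times that of the largest called probe. In 41 of the 97 an uncalled probe had the opposite sign. In 15 genes all probes were called and had the same direction, and in 0 genes were probes called in both directions. Both EMC4 probes were higher, by 0.66 and 0.38, and so were both probes of RAMAC, by 1.14 and 0.48. GABARAPL2 differed by 0.57 on its brighter probe and by -0.03 (limma adjusted p = 0.837) on the other. HSBP1 showed the same kind of split, with 0.49 and 0.01 (limma adjusted p = 0.968). PEDS1-UBE2V1, the read-through gene that shares exons with UBE2V1, a close relative of UBE2V2, had 4 tested probes. Probes at chr20:48132825-48134098 and chr20:48132700-48132759 (NCBI36) were higher by 0.97 and 0.85 (limma adjusted p = 3.57e-07 and 2.44e-06), with all miR-629* arrays above all others. Those at chr20:48131733-48131792 and chr20:48131622-48131681 differed by 0.09 and 0.03 (limma adjusted p = 0.347 and 0.787). The last of these is the brightest, so the gene was not called by the rule that takes the brightest probe. MORF4L2, a chromatin protein of the MRG family, differed by 0.63 on 1 probe and by 0.04 on the brighter one, and EWSR1, an RNA-binding protein, by 0.50 and 0.42 on 2 probes and by 0.00 to 0.14 on the other 3. TAPBP was higher on 1 of 3 tested probes and TSPYL1 on 1 of 2. Whether these splits follow transcript isoforms was not tested.

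**Figure D2:**
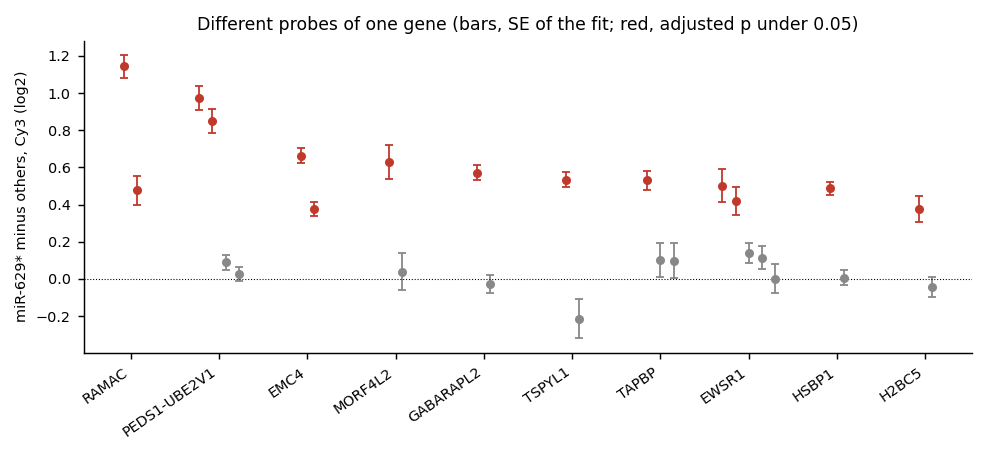
Log2 difference between the miR-629* antagomir and the mean of the 4 other antagomirs for each tested probe of 10 genes, with the standard error of the fit. Red probes had an adjusted p under 0.05. In RAMAC and EMC4 all probes were higher, while in the other 8 genes called probes (0.38 to 0.97) stood beside probes near 0, the lowest at -0.21 in TSPYL1.

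The mimic channel of the same arrays did not show these differences. In Cy5, 0 genes were called between the miR-629* mimic and the 4 other mimics (limma, Benjamini-Hochberg, 0% of the genes tested), with 401 genes at an unadjusted p under 0.05. The Cy5 log2 signals of TMSB10 were 14.57, 14.58 and 14.65 on the miR-629* arrays and 14.52, 14.62 and 14.95 (lowest, median, highest) on the others, a difference of -0.04. For MGST3 the Cy5 difference was -0.02, for EMC4 0.05, for GABARAPL2 0.02 and for HSBP1 -0.01, each with overlapping arrays. UBE2V2 differed by 0.18 in Cy5 (standard error 0.18), with 8.17, 9.26 and 9.44 (lowest, median, highest) on the other arrays. The difference between the dyes was tested directly, since a gene called in Cy3 and not in Cy5 is not thereby shown to differ. The Cy3 difference departed from the Cy5 difference in 10 genes (0.0452% of the genes tested, limma), of which 8 were higher in Cy3 and 2 lower, with 987 genes at an unadjusted p under 0.05. TMSB10 (1.69, standard error 0.13, limma adjusted p = 1.74e-04), MGST3 (0.91), EMC4 (0.62), GABARAPL2 (0.55) and HSBP1 (0.50) were the genes with a current symbol that rose, and ZMAT3 was the 1 that fell. Without miR-565 replicate 1 there were 50 such genes, and without any of the 3 miR-629* replicates 5 or 6. In Cy5, miR-565 replicate 1 had the lowest median rank correlation with the other arrays, 0.974. It also had the fewest probes well above background in Cy5, 68.1%. With this array left out, 0 genes were called in Cy5, but 1384 had an unadjusted p under 0.05 (limma). The Cy5 check and the test between the dyes are limited by this array. For UBE2V2 the departure was 0.99, but its adjusted p was 0.122 (limma). Both dyes of an array were linked by the normalization of the scanner software, and the dye cannot be told apart from the treatment within an array.

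**Figure D3:**
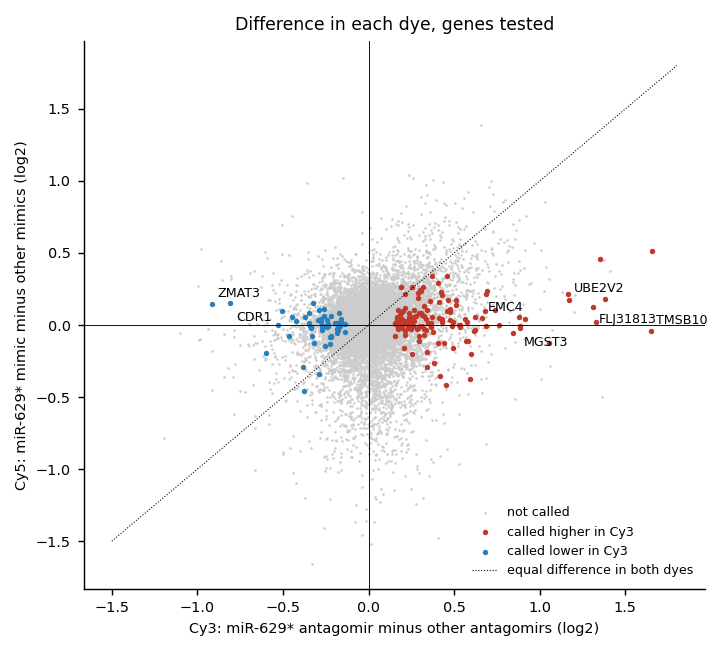
Log2 difference between miR-629* and the mean of the 4 other miRNAs for each gene tested, in Cy3 (antagomir cells, x axis) and in Cy5 (mimic cells, y axis). Genes called in Cy3 are colored and the dotted line marks equal differences. TMSB10 lies at 1.65 in Cy3 and -0.04 in Cy5, and the genes called lower lie left of 0 with Cy5 differences mostly near 0.

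Fewer genes fell, and by less. By the naming rule there were 7 with a current symbol and no overlap between the groups. MAGOH, a core protein of the exon junction complex, had log2 signals of 10.25, 10.22 and 10.26 on the miR-629* arrays and 10.35, 10.48 and 11.11 (lowest, median, highest) on the others, a difference of -0.35 (standard error 0.05, limma adjusted p = 0.00185). FBXL7, a substrate receptor of ubiquitin ligases, differed by -0.24, and THBD, the thrombin receptor thrombomodulin, by -0.18. DGUOK, the mitochondrial deoxyguanosine kinase, differed by -0.18, SGCB, a sarcoglycan, by -0.18, PPA1, the cytosolic pyrophosphatase, by -0.17 and IMP4, of ribosomal RNA processing, by -0.14. In these 7 genes the miR-629* arrays lay only just under the lowest of the others. Within the slide the differences ran from -0.86 for MAGOH to -0.20 for IMP4, but the only other array there was miR-574-3p replicate 3. That setting thus does not separate the slide from the miR-574-3p antagomir. With the slide as a fixed block only MAGOH of the 7 kept its call. The IMP4 call was lost in 23 of 31 alternative settings. Against single antagomirs, each of the 7 passed an adjusted p of 0.05 only against miR-574-3p, from -0.71 for MAGOH to -0.17 for IMP4. The deepest fall without overlap was of a probe named CDR1 in the files, with log2 signals of 5.20, 5.06 and 5.11 against 5.55, 5.93 and 6.27 (lowest, median, highest), a difference of -0.81 (standard error 0.09, limma adjusted p = 1.10e-04). It was lower than each of the 4 others, by 0.57 to 1.09, but the files place this probe on chromosome 16 and no current symbol matched it, so its gene is uncertain. Within the slide its difference was -0.55 (limma adjusted p = 0.152).

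Many of the calls depended on 1 other antagomir. Of the 55 genes called lower, miR-574-3p was the antagomir farthest from miR-629* for 37, and 12 kept their call when its 3 arrays were left out. Of the 146 called higher, it was the farthest for 48, and 71 kept their call without it. TRIOBP, an actin-bundling protein, shows this. Its log2 signal was 11.04, 11.01 and 11.07 on the miR-629* arrays, which lay within the range of the others, and the group means were 11.02, 11.05, 10.95 and 8.39 for miR-181d, miR-565, miR-766 and miR-574-3p. The difference of 0.69 (limma adjusted p = 2.64e-05) thus came from the last of these, and against miR-181d it was 0.02. FGFRL1, a fibroblast growth factor receptor-like protein, was similar, with 8.72 in miR-629* and 6.10 in miR-574-3p, and so was F7, coagulation factor VII. ZMAT3, a p53 target with zinc fingers, had the largest fall of the called genes with a symbol, -0.92 (limma adjusted p = 0.00111), but its mean was 6.28 with the miR-574-3p antagomir and 3.77 to 3.95 with the other 3, against 3.55 here. CCNK, a cyclin of transcription, and GAS5, a noncoding host gene of small nucleolar RNAs, differed by -0.47 and -0.37. Against miR-574-3p and miR-766 CCNK differed by -1.28 and -0.42, and against miR-181d and miR-565 by -0.04 and -0.11. Its call was lost without the miR-574-3p arrays, and its other probe differed by -0.08 (limma adjusted p = 0.665). GAS5 was lower than in miR-574-3p and miR-766, by 0.70 and 0.71, and differed from miR-181d and miR-565 by -0.04 and -0.03. With the calls required to hold when each of the 4 other antagomirs was left out in turn, 63 of the 146 genes and 4 of the 55 remained.

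**Figure D4:**
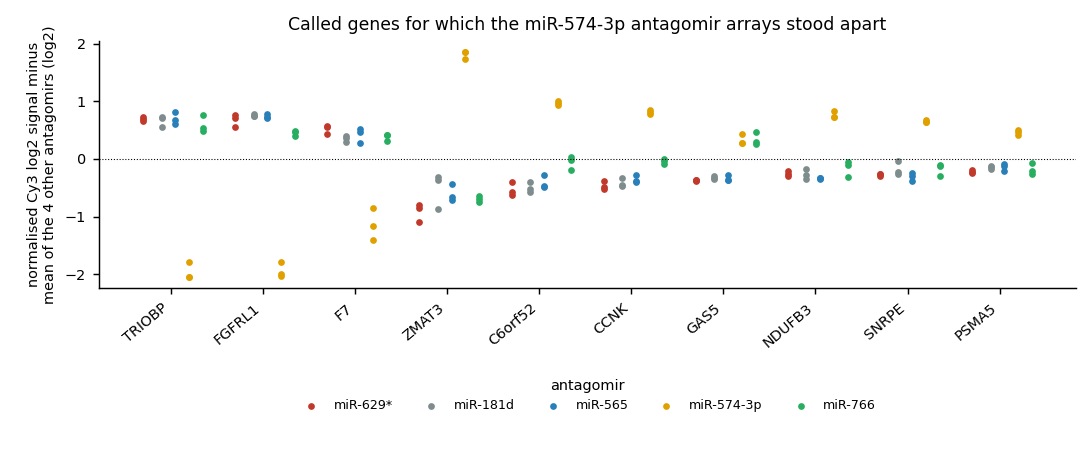
Normalised Cy3 log2 signal of each of the 15 arrays, minus the mean of the 4 other antagomirs' means, for 10 genes that were called in the miR-629* comparison with overlapping arrays. Each point is an array. The red miR-629* points lie among or near the miR-181d and miR-565 points, while the yellow miR-574-3p points lie below them in TRIOBP, FGFRL1 and F7 and above them in the other 7. In GAS5 the green miR-766 points lie as high.

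Genes were also read by function on 27 lists, of which 17 had no called member. Except for the short marker lists of fibroblasts, leukocytes and endothelium, the medians of the lists ran from -0.05 for p53 targets to 0.05 for epithelial and A549 markers (log2). Over all genes tested the median was 0.00, and 0.908% were called in either direction. The actin list had 45 tested members, of which TMSB10 and TPM2, a tropomyosin that differed by 0.16 with overlapping arrays, were higher. The TPM2 call was lost in 25 of 31 alternative settings. Of 23 tested members of a list of glutathione transferases, MAPEG proteins and other glutathione enzymes, MGST3 was called higher, and the median of the list was 0.02. GSTM5, described above, is not on that list. TMSB10 and MGST3 were already known from earlier results of these data. PRIM1, the small subunit of DNA primase, was the only called gene of 43 for DNA replication, at 0.36 (limma adjusted p = 4.62e-04), with log2 signals of 11.40, 11.61 and 11.55 against at most 11.36. It did not pass against miR-766 alone (0.22, limma adjusted p = 0.0798) or within the slide (0.36, limma adjusted p = 0.0802), and the call was lost with the slide as a fixed block (limma adjusted p = 0.317). H2BC5, a histone H2B gene, was the only called one of 22 histone genes, at 0.38 on its brighter probe. Its arrays overlapped, since the miR-574-3p antagomir arrays had a mean of 12.92 against 12.66 here. The other H2BC5 probe differed by -0.04 (limma adjusted p = 0.758). The H2BC5 call was lost in 8 of 31 alternative settings, among them the mean of its probes, and the sign turned in 1 other.

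The lists with lower members were those of proteasome, respiratory chain, splicing and single genes elsewhere. Over all genes tested, 0.249% were called lower and 0.908% in either direction. PSMA5, PSMA2 and PSMA7, subunits of the core particle, were lower by -0.22, -0.17 and -0.17 among 31 proteasome genes (median -0.03). NDUFB3 and NDUFA1, accessory subunits of complex I, were lower by -0.26 and -0.18 among 54 respiratory chain genes (median -0.03). SNRPE and SNRPF, of the Sm ring, were lower by -0.27 and -0.25 among 45 splicing genes (median -0.02). ATP6V0D1 of the lysosomal proton pump, ETV4, a transcription factor downstream of ERK, and ZMAT3 were the only lower members of their lists of 37, 30 and 29 genes. In all of these the miR-629* arrays overlapped with the others, and in NDUFB3 the group means were 13.16 here, 13.08 to 13.26 with 3 other antagomirs and 14.18 with the miR-574-3p antagomir. Like NDUFB3, PSMA5, PSMA7, NDUFA1, SNRPE, ATP6V0D1 and ZMAT3 passed only against miR-574-3p when the antagomirs were taken singly, and lost their call without its arrays. SNRPF differed most from miR-766, by -0.60, and by -0.08 from miR-181d and -0.06 from miR-565, and without the miR-766 arrays its difference was -0.14 (limma adjusted p = 0.0653). PSMA2 lost its call without miR-574-3p and also without miR-766. ETV4 differed most from miR-181d, by -0.39, and its call was lost in 24 of 31 alternative settings. No called member was found among 63 ribosomal protein genes (median -0.04), 46 mitotic genes (median 0.01) or 37 interferon response genes (median 0.00). The same held for 32 genes of the unfolded protein response (median -0.02), 26 genes of miRNA processing (median -0.02) and 28 targets of NRF2 (median 0.00). At the share over all genes, lists of these sizes would hold few or no called genes. Their lack of calls therefore says little about these functions.

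**Figure D5:**
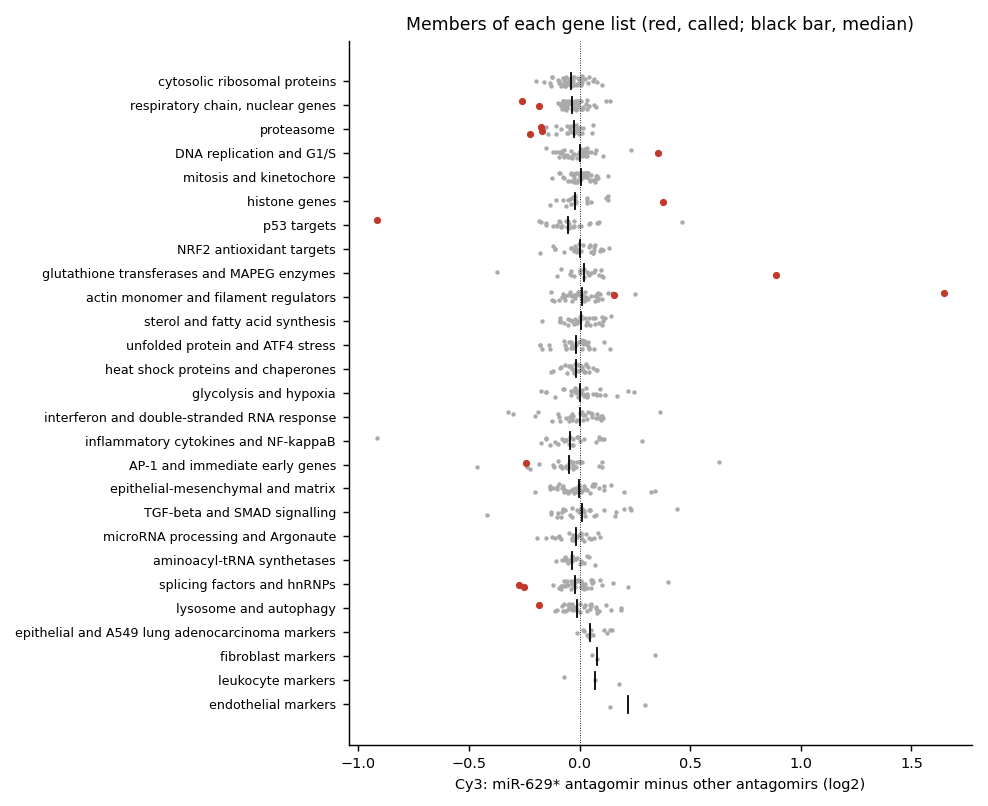
Log2 difference between the miR-629* antagomir and the mean of the 4 other antagomirs in Cy3 for the tested members of 27 gene lists. Each point is a gene, called genes are red, and the black bar is the median of the list. Medians lie near 0 and the called genes are single members at the ends of their lists, such as TMSB10 at 1.65 and ZMAT3 at -0.92.

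The identity of the cells was read from marker lists. Of 12 epithelial and A549 markers, 11 were well above background on all 15 arrays, and their summed log2 signal was 19.12 to 19.17 on the miR-629* arrays and 19.02 to 19.22 on the others. Of the markers of fibroblasts and leukocytes, 4 of 8 each were above background on no array and 3 of 8 each on all 15, and of 6 endothelial markers 3 were above background on no array. Summed marker signals of these lists on the miR-629* arrays lay within the range of the other arrays in every case.

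Matches to the seed were counted in the probes. The letters searched were GGGAGAA, the complement of the miR-629* seed, on the strand of the probe. They occurred in 0.601% of the probes of the genes tested, in 2 of the 146 probes of genes called higher (1.37%) and in 0 of the 55 of genes called lower. A probe covers 60 bases of a transcript, and the untranslated regions were not searched here.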

How the data were processed

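The authors deposited the Agilent Feature Extraction 9.5.3.1 output of 15 dual-color arrays. The deposited intensity values are processed signals, in which that software had removed background and spatial trends and had balanced the dyes of an array by LOWESS, and mean signals and local backgrounds, which are not normalized. Deposited flag columns for background, outliers and saturation are codes with no unit. Cy3 held antagomir cells and Cy5 mimic cells, with no dye swap.

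In R 4.3.3, control spots (1639 per array) and spots flagged as outliers (1397 in Cy3 and 1672 in Cy5 over all arrays) were left out, 0 spots were saturated, spots were averaged by probe on the log2 scale (41000 probes), and each dye was quantile normalized. Probes well above background in Cy3 on at least 3 arrays were tested (30176). A linear model with a coefficient for each miRNA was fitted to the 15 arrays in limma 3.58.1, with the prior variance following intensity. The contrast was miR-629* minus the mean of the 4 others, and p values were adjusted over all probes tested. A gene took its brightest probe. Symbols were matched to GRCh38.p14 by accession (23958 probes), symbol (2755) or synonym (1032), and 13255 probes kept the name in the files. Probe positions are NCBI36. Named genes are the 12 largest rises and 12 largest falls (7 qualified) with a current symbol, an adjusted p under 0.05, signal above background and no overlap between the 3 and the 12 arrays, the largest 6 of each direction that also departed from Cy5, up to 4 called genes per list, TMSB10 and MGST3. Others were named after their values were seen. The members and lists were chosen with earlier results of these data known.

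The fit was tested on simulated data with the spread of the real Cy3 arrays (30133 probes, 50 changed per size). It recovered 44% at a log2 change of 0.3, 84% at 0.6, 98% at 1 and 100% at 1.5, with 5 false calls. In the simulated data the other antagomirs had the same mean for each probe, and slides did not differ. The 5 false calls therefore do not tell how many calls on the real arrays are false. The number of arrays limits the precision.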

Additional observations from a re-analysis of the deposited data

Results flagged for a closer look

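For 10 genes or probes, the difference of the miR-629* antagomir cells from the other antagomirs departed from that of the miR-629* mimic cells from the other mimics (limma, adjusted p under 0.05). The departures (Cy3 minus Cy5, log2) were 1.69 for TMSB10, 1.31 for ENST00000373268, 1.19 for FLJ31813, 1.18 for AK054718, 0.91 for MGST3, 0.62 for EMC4, 0.55 for GABARAPL2, 0.50 for HSBP1, -0.96 for the probe named CDR1 and -1.06 for ZMAT3. For the 8 that were higher the Cy5 differences were between -0.12 for AK054718 and 0.12 for FLJ31813, smaller than the Cy3 differences. ZMAT3 and the CDR1 probe had Cy5 differences of 0.15 each (standard errors 0.15 and 0.12), opposite in sign to Cy3. Neither was called in Cy5. For ZMAT3 the Cy3 difference rested on the miR-574-3p antagomir, and it was -0.31 with those arrays left out.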

How the results depend on the processing

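Of 51 named genes or probes that were called, 9 kept their direction and their call in every setting tried, among them TMSB10 (1.51 to 1.78), UBE2V2 (1.09 to 1.24), MGST3 (0.80 to 0.99), EMC4 (0.52 to 0.72), GABARAPL2 (0.27 to 0.64) and HSBP1 (0.25 to 0.50). H2BC5 turned to -0.38 within the slide, where the only comparison array, miR-574-3p replicate 3, had 13.03, the highest of the other 12 arrays. The change of sign there goes with a change of comparison antagomir. TMSB4X and MORF4L1, called in no setting, also changed sign, TMSB4X to -0.0396 within the slide, -0.0049 without miR-766 and -0.0188 to 0.0469 without single arrays, and MORF4L1 to -0.0232 with the mean of its probes and -0.0045 without miR-181d. The counts of genes called were less stable, and the cause was not tested. Against 146 higher, 55 lower, 0 in Cy5 and 10 between the dyes, median centring gave 93 higher and 32 lower, 2 groups of 3 and 12 arrays gave 55 and 3, and a random slide block (estimated correlation -0.23) gave 2023 and 2021 with 1 between the dyes. Within the slide, where the lone array of miR-574-3p was assumed to vary like the others, 500 were higher and 184 lower with 0 between the dyes, and 62 and 33 of the main calls were kept. For a fit with the slide as a fixed block, the miR-766 arrays, alone on their slide, were left out. It gave 177 higher, 139 of them by over 2-fold, and 9 lower, and 26 and 5 of the main calls were kept. The same fit called 454 in Cy5 and 908 between the dyes. Testing dim probes too gave 1 in Cy5. Leaving out each array in turn gave 63 to 174 higher, 15 to 78 lower, 0 in Cy5 and 5 to 50 between the dyes, the last without miR-565 replicate 1. In settings chosen after seeing the data, leaving out miR-181d gave 145 lower, miR-565 33 between the dyes, miR-574-3p 82 higher, 12 lower and 6 between the dyes, and miR-766 255 higher and 123 lower. With the replicate number as a replicate block there were 194 higher and 59 lower. Correlations of deviations between arrays of different miRNAs had a median of 0.10 for equal numbers (-0.21 to 0.33). For different numbers the median was -0.05 (-0.31 to 0.36), and 8 of 15 arrays were closest to one of their own number. Since these ranges overlap, whether the numbers pair the arrays was not decided. Dim signals limit what could be called, since their spread was over 3 times that of bright ones. Precision rests on 3 arrays.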

Other observations

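Of the 35 genes that were higher than in each of the 4 other antagomirs, 21 had a current symbol, among them TMSB10, UBE2V2, MGST3 and others named by rule. The following lie beyond the genes named by rule and were chosen after their values were seen. BRK1, the smallest subunit of the WAVE complex that starts branched actin filaments, had log2 signals of 15.11, 15.20 and 15.24 on the miR-629* arrays and at most 14.96 on the others, a difference of 0.32 (standard error 0.04, limma adjusted p = 3.14e-04), and both of its probes were called. UBE2F, which conjugates the ubiquitin-like protein NEDD8, had 12.80, 12.92 and 12.90 against at most 12.68, a difference of 0.24, on its brighter probe and a difference of -0.01 (limma adjusted p = 0.951) on the other, and with the mean of both its difference was 0.12 and the call was lost. LYN, a kinase of the SRC family, had 10.03, 10.02 and 10.07 against at most 9.90, a difference of 0.25. SERPINB3, a serpin of squamous epithelium, had 7.05, 7.06 and 7.06 against at most 6.81, a difference of 0.43. Within the slide the adjusted p of BRK1 was 0.0347 and those of UBE2F, LYN and SERPINB3 were 0.176, 0.224 and 0.104 (limma).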
